A study of Mus musculus with 10 samples.

Results

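The cholesterol synthesis enzymes Hmgcs1, Idi1, Fdps, Fdft1, Sqle, Lss and Cyp51 were followed in muscle satellite cells (MuSCs) of control and Trpm7 cKO mice. They were found by gene symbol and make up 7 of the 24608 symbols in the count table. All 7 act in synthesis. None takes up sterol, so genes of sterol uptake are described separately. Each of the 5 control and 5 Trpm7 cKO libraries came from 3000 sorted YFP-positive cells taken 3 days after cardiotoxin (CTX) injury of skeletal muscle. Control mice were Trpm7+/+; Pax7CreERT2/+; Rosa26YFP. Trpm7 cKO mice were Trpm7flox/flox; Pax7CreERT2/+; Rosa26YFP. Mice of both genotypes were adult, on a C57BL6 background and matched in age, and received tamoxifen, so that the Cre allele, the reporter, the drug and the injury were common to both. Cre is driven from Pax7 in this model and acts once tamoxifen is given. Cells that did not express Pax7 then, and do not descend from cells that did, keep Trpm7.

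Cholesterol is built from acetyl-CoA. HMG-CoA synthase (Hmgcs1) acts on the way to mevalonate, Idi1 and Fdps carry isoprene units to farnesyl diphosphate, and Fdft1 joins farnesyl units into squalene. Squalene epoxidase (Sqle) and lanosterol synthase (Lss) form lanosterol, from which Cyp51 removes a methyl group on the way to cholesterol. The transcription factor SREBP2 (Srebf2) is known to raise the transcription of these genes when membrane sterol is low, binding sterol regulatory elements near their starts together with NF-Y and SP1.

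Promoters in the RefSeq table for GRCm38.p6 were found for 4 of the 7 genes, namely Hmgcs1, Idi1, Lss and Cyp51. The 250 bases before the start of Hmgcs1 (chr13:119690101-119690350, plus strand) and of Cyp51 (chr5:4104698-4104947, minus strand) are shown because these 2 genes differed in the letters sought and were both measured well enough to test. Capitals mark TCACNCCAC, a form of the sterol regulatory element, the NF-Y motif CCAAT and the SP1 motif GGGCGG on either strand.
Hmgcs1: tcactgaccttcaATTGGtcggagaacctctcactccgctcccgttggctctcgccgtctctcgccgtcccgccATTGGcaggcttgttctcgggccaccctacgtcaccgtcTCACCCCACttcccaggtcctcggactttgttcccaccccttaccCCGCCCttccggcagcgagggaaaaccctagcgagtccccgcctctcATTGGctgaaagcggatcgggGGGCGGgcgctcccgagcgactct
Cyp51: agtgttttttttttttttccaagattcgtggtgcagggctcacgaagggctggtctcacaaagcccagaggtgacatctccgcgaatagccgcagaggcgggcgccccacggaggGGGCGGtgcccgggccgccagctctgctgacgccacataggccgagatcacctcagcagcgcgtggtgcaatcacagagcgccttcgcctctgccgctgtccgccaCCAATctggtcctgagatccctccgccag
Hmgcs1 held 1 match to TCACNCCAC, 3 NF-Y motifs and 2 SP1 motifs in this window. In Cyp51 the same window held 0, 1 and 1, in Idi1 0, 2 and 1, and in Lss 0, 1 and 2. Other forms of the sterol regulatory element were not sought, so that a 0 does not show its absence. No base belonged to more than 1 motif in these windows. The starts are those of RefSeq. By the GENCODE positions given below, the genes Cyp51, Idi1 and Lss begin inside their windows, so that some of these motifs lie within the gene. Among 32851 promoters of the same length, 1.05% held TCACNCCAC, 33.8% held CCAAT and 32.7% held GGGCGG. These matches describe letters and do not show binding.

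Counts are of unique molecules from the 3′ end of transcripts, read by CEL-Seq2. Control libraries held 914361 to 1097709 counts and Trpm7 cKO libraries 205986 to 581121, without overlap (p = 0.00794 in a two-sided exact permutation test, the lowest value that 252 splits allow). Levels are given as normalized CPM, that is counts scaled to a library of 1e+06 counts after TMM correction. On this scale 1 count was worth 0.994 to 1.16 CPM in control libraries and 1.66 to 5.52 CPM in Trpm7 cKO libraries, so that low genes were read more coarsely in Trpm7 cKO MuSCs. Depth and genotype cannot be told apart. In sorted cells read in bulk, fewer cells of a type and less RNA per cell cannot be told apart either. Trpm7 itself was at 76.9 ± 9.97 CPM in control and 71.4 ± 22.0 CPM in Trpm7 cKO MuSCs (SD, n = 5). Its log2 fold change was -0.09 (adjusted p = 0.723 by edgeR). Whether 3′ reads lie on the floxed exon is not given in the sources used here, so that this level alone does not check the deletion. The study reported the deletion from Trpm7 mRNA in freshly isolated MuSCs, from PCR products and from TRPM7 immunofluorescence on isolated myofibers. It also reported lower magnesium influx in cultured Trpm7 cKO MuSCs. Pax7 was present in both genotypes, at 206 ± 33.7 and 474 ± 122 CPM. Markers of other cells differed. The summed level of 24 leukocyte markers was 416 to 719 CPM in control and 1492 to 6449 CPM in Trpm7 cKO libraries, and that of 8 endothelial markers was 6.43 to 60.2 and 114 to 590 CPM (exact permutation test, two-sided, p = 0.00794 for each). Of the 24 leukocyte markers 18 were tested, and all 18 were higher in Trpm7 cKO libraries (adjusted p below 0.05 by edgeR). Of all 7753 tested genes 24.6% were higher. The T cell marker Cd3e and the B cell marker Cd79a were at 0 in every control library and at 0 or 1 count in each Trpm7 cKO library. A number of unstated meaning is common to the labels of replicates 4 and 5 of Trpm7 cKO.

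Among the 7 enzymes, Sqle fell in Trpm7 cKO MuSCs, and no enzyme passed the test in the other direction. Sqle was at 60.4 ± 8.01 CPM in control and 28.4 ± 17.0 CPM in Trpm7 cKO MuSCs (SD, n = 5). Hmgcs1, Fdft1 and Cyp51 were measured well enough to test and did not pass. Fdps, Idi1 and Lss did not pass the filter on low counts. Of the 4 enzymes tested, 1 was lower and 0 were higher at an adjusted p-value below 0.05 (edgeR quasi-likelihood test, Benjamini-Hochberg), and 3 had a log2 fold change below 0, with a median of -0.26. Over all 7753 tested genes 48.7% passed in either direction, 24.1% lower and 24.6% higher, with a median log2 fold change of -0.01. The 1 in 4 was thus near the share of all genes. None of the 4 went beyond a log2 fold change of 1.5, the further threshold of the study's own analysis, which 3.53% of all tested genes passed lower and 8.49% higher.

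**Figure D1:**
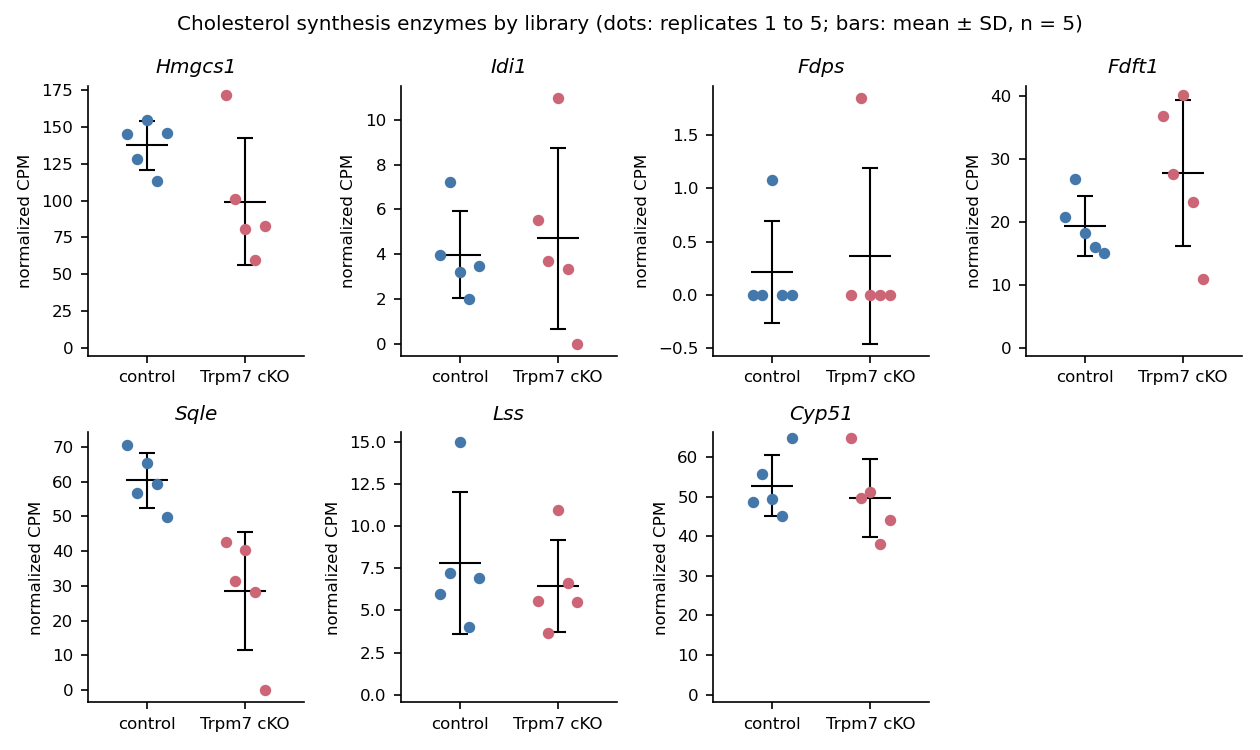
Normalized CPM (y axis, linear) of the 7 enzymes in each control (blue) and Trpm7 cKO (red) library, in pathway order. Dots are replicates 1 to 5 from left to right and bars are the mean ± SD of 5 libraries. All Trpm7 cKO libraries lie below all control libraries for Sqle alone, and Fdps has a count in 1 library of each genotype.

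Hmgcs1 (ENSMUSG00000093930, chr13:119690379-119708260, plus strand) makes HMG-CoA on the way to mevalonate. Control libraries 1 to 5 had 145, 128, 154, 113 and 146 CPM. Trpm7 cKO libraries 1 to 5 had 172, 101, 80.4, 59.6 and 82.8 CPM. Replicate 1 of Trpm7 cKO thus lay above every control library and the other 4 lay below every one, so that the groups overlapped. The means were 137 ± 16.5 and 99.2 ± 43.2 CPM, and the coefficient of variation was 12.0% in control against 43.6% in Trpm7 cKO MuSCs. The log2 fold change was -0.43 (SE 0.22, 95% interval -0.88 to 0.02, adjusted p = 0.104 by edgeR). Without Trpm7 cKO replicate 1 it was -0.79 and the adjusted p was 0.00152. With MuSC markers as the basis of scaling it was -0.69 and the adjusted p was 0.0111, and with the leukocyte markers in the model it turned to 0.15 (adjusted p = 0.923).

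Idi1 (ENSMUSG00000058258, chr13:8885501-8892451, plus strand) interconverts the isoprene units. It had 29 counts in all. Control libraries had 4, 7, 3, 2 and 3 counts and Trpm7 cKO libraries 3, 2, 3, 2 and 0 counts. The ratio of summed counts, control over Trpm7 cKO and scaled to library size, was 0.854, with an exact 95% counting interval of 0.378 to 2.06. A difference was not detectable at this depth.

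Fdps (ENSMUSG00000059743, chr3:89093588-89101959, minus strand) makes farnesyl diphosphate, the branch point to prenylation, dolichol and ubiquinone. It had 1 count in control replicate 3, 1 count in Trpm7 cKO replicate 2 and 0 in the other 8 libraries. Of the last 500 bases of its transcript, 445 (89.0%) lay in matches of 31 bases shared with 7 other genes. These comprised 6 processed pseudogenes, which are not listed in the table, and Gm43738, which overlaps Fdps and had 0 counts. How reads that match several genes were treated is not given in the sources used here, and the counts are no measure of Fdps RNA.

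Fdft1 (ENSMUSG00000021273, chr14:63145150-63179578, minus strand) is squalene synthase, the first enzyme committed to sterol. Control libraries 1 to 5 had 20.9, 26.8, 18.2, 16.1 and 15.05 CPM. Trpm7 cKO libraries had 37.0, 27.6, 40.2, 23.2 and 11.0 CPM. Of the Trpm7 cKO libraries, 3 lay above every control library and replicate 5 lay below all of them, with 2 counts. The means were 19.4 ± 4.72 and 27.8 ± 11.6 CPM, with a log2 fold change of 0.56 (SE 0.28, 95% interval -0.02 to 1.14, adjusted p = 0.100). Fdft1 passed as higher without control replicate 2 (log2 fold change 0.72, adjusted p = 0.0478) and without Trpm7 cKO replicate 5 (0.66, adjusted p = 0.0479), and its value turned to -0.58 without scaling for library size. Its 3′ end overlaps that of Ctsb on the opposite strand, and the strand setting of the counting is not given in the sources used here. Ctsb, which encodes the lysosomal protease cathepsin B, was at 181 ± 14.4 CPM in control and 1159 ± 470 CPM in Trpm7 cKO MuSCs, and its part in the Fdft1 counts was not tested.

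Sqle (ENSMUSG00000022351, chr15:59315077-59331192, plus strand) oxidises squalene and is a rate-limiting step of the sterol branch. Control libraries 1 to 5 had 70.6, 56.8, 65.4, 59.2 and 49.8 CPM, from 43 to 71 counts each. Trpm7 cKO libraries had 42.5, 31.3, 40.2, 28.2 and 0 CPM, from 23, 17, 11, 17 and 0 counts. A count of 0 in replicate 5 allows up to 16.6 CPM. Every Trpm7 cKO library lay below every control library, which held for 17.9% of all tested genes (16.6% lay entirely above). The log2 fold change was -0.95 (SE 0.27, 95% interval -1.52 to -0.38, adjusted p = 0.00686 by edgeR). Sqle passed in all 10 fits that left out 1 library, with values from -1.14 to -0.79. It did not pass after thinning all libraries to the smallest (-0.67, adjusted p = 0.167) or with the mean level of the leukocyte markers in the model (-0.27, adjusted p = 0.883). That marker level did not overlap between the genotypes.

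Lss (ENSMUSG00000033105, chr10:76531588-76557138, plus strand) closes the sterol rings. Its 3′ end overlaps 4930483K19Rik on the opposite strand. It had 50 counts in all. Control libraries had 6, 7, 14, 4 and 6 counts and Trpm7 cKO libraries 3, 2, 3, 4 and 1. The scaled ratio of summed counts, control over Trpm7 cKO, was 1.28 with an exact 95% counting interval of 0.665 to 2.62, and no difference was detectable. These intervals cover counting error only. Fitted with no filter on low counts, the log2 fold changes were -0.53 for Lss (adjusted p = 0.481) and 0.04 for Idi1 (adjusted p = 0.976). In that fit Sqle and Hmgcs1 were the enzymes that passed as lower.

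Cyp51 (ENSMUSG00000001467, chr5:4081145-4104746, minus strand) is lanosterol demethylase. Control libraries 1 to 5 had 48.7, 55.8, 49.3, 45.2 and 64.8 CPM. Trpm7 cKO libraries had 64.7, 49.7, 51.2, 38.1 and 44.1 CPM. The ranges overlapped. The means were 52.8 ± 7.75 and 49.6 ± 9.89 CPM and the log2 fold change was -0.08 (SE 0.19, 95% interval -0.48 to 0.33, adjusted p = 0.772). The gene overlaps Akap9 at its 3′ end on the opposite strand, which was at 55.8 ± 6.13 and 71.8 ± 15.7 CPM.

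The enzymes were also compared with each other inside each library. Ratios of counts within a library do not depend on scaling and were compared for all 21 pairs, with 0.5 added to each count (exact permutation test, two-sided). The added 0.5 weighs more at low counts, so that ratios of low genes still vary with depth, which did not overlap between the genotypes. The log2 ratio of Sqle to Fdft1 was 1.73, 1.07, 1.81, 1.85 and 1.69 in control libraries and 0.20, 0.18, 0.00, 0.27 and -2.32 in Trpm7 cKO libraries. The groups did not overlap. The means were 1.63 ± 0.32 and -0.34 ± 1.11, a difference of -1.97 (p = 0.00794, adjusted p = 0.0476 over 21 pairs in the exact permutation test). With 2 added to each count in place of 0.5, the difference was -1.63. Without Trpm7 cKO replicate 5, in which Sqle was at 0, the difference was -1.47 (adjusted p = 0.0667). Hmgcs1 to Fdft1 differed by -1.02 and Sqle to Cyp51 by -1.41 (p = 0.0159 for each before adjustment in the exact permutation test, adjusted p = 0.0476). In all, 7 pairs passed after adjustment, but 3 of them hold Fdps, whose 0 or 1 count makes the ratio a measure of depth. Another, Sqle to Idi1, holds a gene with at most 7 counts in a library. Over the 15 pairs without Fdps, an alternative chosen after seeing the data, the adjusted p for Sqle to Fdft1 was 0.0595 in the exact permutation test and 0 pairs passed, with 5 below an unadjusted p of 0.05.

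**Figure D2:**
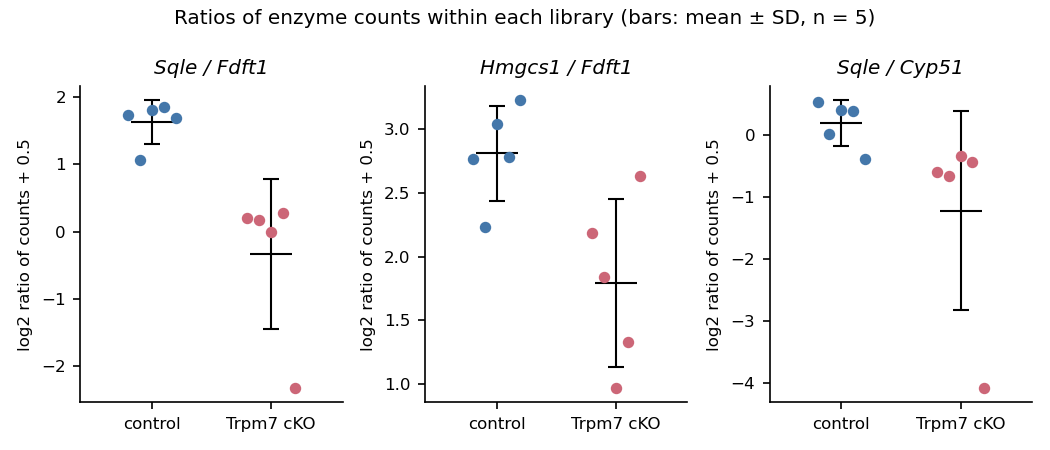
Log2 ratio of counts (0.5 added to each) within each library for 3 pairs of enzymes. Dots are libraries and bars the mean ± SD of 5. Trpm7 cKO libraries lie below all control libraries for Sqle to Fdft1, and replicate 5 stands apart at -2.32.

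The summed level of the 7 enzymes was 240 to 307 CPM in control and 143 to 327 CPM in Trpm7 cKO libraries. Around the genotype means, Hmgcs1 and Cyp51 varied together over the 10 libraries (Pearson's r = 0.79, Spearman's rho = 0.67). Sqle and Fdft1 had r = 0.87 and rho = 0.75, with r = 0.66 without Trpm7 cKO replicate 5. Hmgcs1 and Sqle had r = 0.25 and rho = 0.21, with r = 0.56 without that library. These values are descriptions and share the depth of each library. The genes whose deviations were most like the mean of the 7 enzymes, among 7749 tested genes with at least 10 CPM on average, were Krr1 (r = 0.98), Mboat1 (r = 0.97), Srsf6 (r = 0.96), Gfer (r = 0.95) and Clock (r = 0.94). Without Trpm7 cKO replicate 5 these values were 0.92, 0.90, 0.97, 0.90 and 0.91. Against the 4 tested enzymes alone, over all 10 libraries, they were 0.91, 0.86, 0.95, 0.88 and 0.93. These genes were picked as the highest of 7749, and high values follow in part from that choice.

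Among the other enzymes of the pathway, Acat2 fell and Sc5d and Ebp rose. Of 13 listed, 7 were tested, and 1 was lower and 2 were higher, near the 24.1% and 24.6% of all tested genes, with a median log2 fold change of -0.33. Acat2, the cytosolic thiolase before Hmgcs1, fell from 24.0 ± 5.43 to 13.6 ± 4.17 CPM (log2 fold change -0.86, SE 0.30, adjusted p = 0.0229), but did not pass without control replicate 1 or 5 or Trpm7 cKO replicate 1 or 2 (adjusted p = 0.0518 to 0.0745). Sc5d, the lathosterol desaturase, rose from 26.2 ± 4.57 to 49.3 ± 12.8 CPM (0.98, SE 0.22, adjusted p = 0.00094). Ebp, a sterol isomerase, rose from 25.3 ± 4.35 to 42.4 ± 13.8 CPM (0.75, SE 0.24, adjusted p = 0.0145), but not without Trpm7 cKO replicate 4 (0.53, adjusted p = 0.0982). Msmo1 (-0.33), Nsdhl (-0.48), Hsd17b7 (-0.42) and Erg28 (0.03), all of sterol demethylation, did not pass. Ebp and Sc5d turned to -0.39 and -0.15 without scaling for library size.

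**Figure D3:**
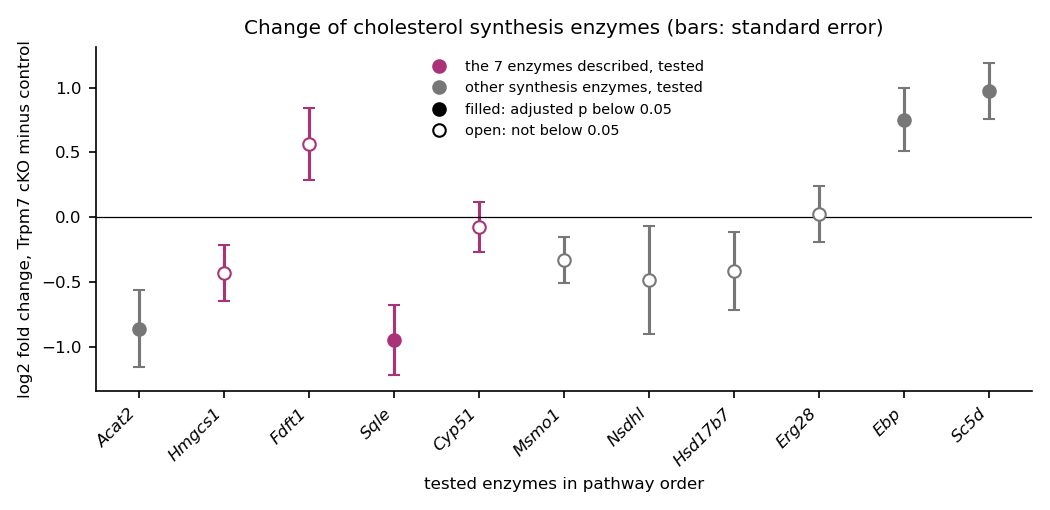
Log2 fold change, Trpm7 cKO minus control, of 11 tested cholesterol synthesis enzymes in pathway order, with standard errors. Filled points have an adjusted p below 0.05. Of the filled points, Acat2 and Sqle lie below 0 and Ebp and Sc5d above it.

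**Figure D4:**
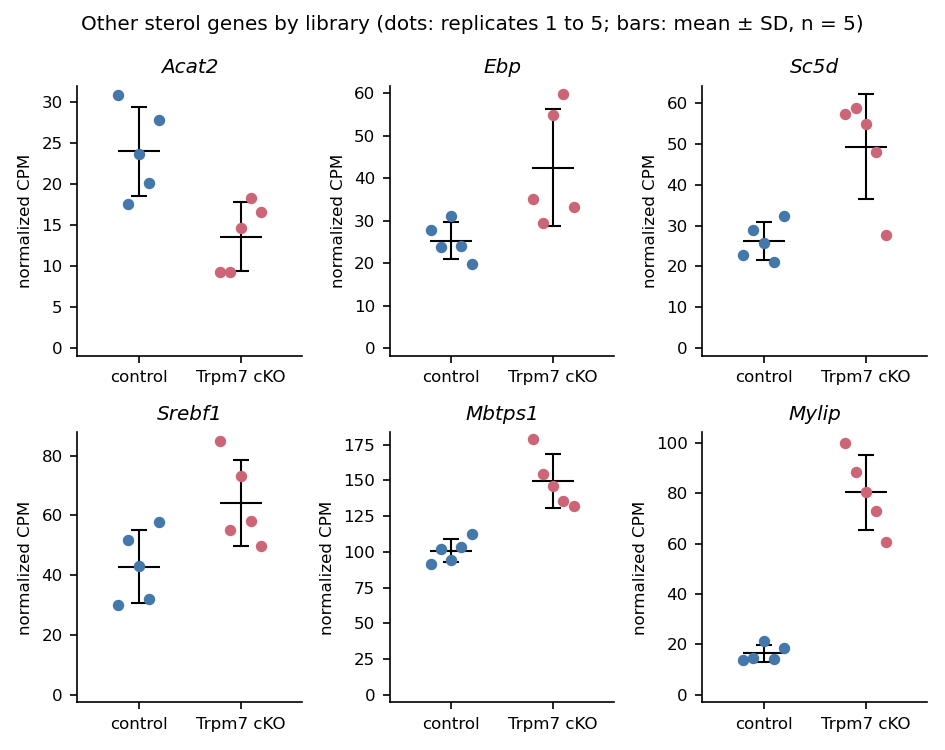
Normalized CPM (linear axis) of Acat2, Ebp, Sc5d, Srebf1, Mbtps1 and Mylip in each library, with the mean ± SD of 5. All Trpm7 cKO libraries lie above all control libraries for Mbtps1 and Mylip.

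The regulators of the pathway showed small differences. Of 7 genes of SREBP control, each was tested, 0 were lower and 2 higher, with a median of 0.27. Of all tested genes 24.1% were lower and 24.6% higher, so that the 2 in 7 was near that share. Srebf2, which encodes SREBP2, was at 134 ± 5.69 and 129 ± 31.5 CPM (log2 fold change -0.08, SE 0.17, adjusted p = 0.736). Srebf1, which encodes SREBP1, rose from 42.9 ± 12.1 to 64.2 ± 14.5 CPM (0.61, adjusted p = 0.028), and Mbtps1, the site-1 protease that cuts both, from 101 ± 8.20 to 150 ± 18.7 CPM (0.59, adjusted p = 0.00194). The 3′ end of Srebf1 overlaps Rai1 on the opposite strand. Srebf1 did not pass without control replicate 1, 3 or 4 or Trpm7 cKO replicate 1 or 3 (0.45 to 0.60, adjusted p = 0.0527 to 0.127). Srebf1 and Mbtps1 both turned negative without scaling for library size, at -0.53 and -0.55. Neither passed with MuSC marker scaling (0.41 and 0.39, adjusted p = 0.177 and 0.0973 by edgeR). With the leukocyte markers in the model they did not pass either (0.22 and 0.78, adjusted p = 0.885 and 0.244 by edgeR). The SREBP escort Scap (0.16), its retention factors Insig1 (0.27) and Insig2 (0.28), and the site-2 protease Mbtps2 (-0.22) did not pass.

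Genes of sterol uptake and release were mostly higher. Of 10 listed, 9 were tested, with 0 lower and 6 higher and a median of 1.21. The shares of all tested genes were 24.1% lower and 24.6% higher. Mylip, a ubiquitin ligase of lipoprotein uptake, rose from 16.5 ± 3.37 to 80.4 ± 14.9 CPM (log2 fold change 2.32, SE 0.21, adjusted p = 5.84e-08 by edgeR). With the leukocyte markers in the model it was 2.77 (adjusted p = 0.00134 by edgeR). That marker level did not overlap between the genotypes, so that this model cannot tell it apart from genotype. The receptors Vldlr (1.71), Lrp1 (2.37) and Scarb1 (1.21), the lysosomal lipase Lipa (2.15) and the lysosomal sterol carrier Npc2 (0.79) also rose. Scarb1 did not pass without Trpm7 cKO replicate 4 (0.85, adjusted p = 0.115). With the leukocyte markers in the model Vldlr (2.64, adjusted p = 0.0884), Lrp1 (1.15, adjusted p = 0.265) and Lipa (0.61, adjusted p = 0.627) did not pass, and Scarb1 and Npc2 turned to -2.06 and -0.65. Without scaling for library size, Vldlr (0.58, adjusted p = 0.160) and Scarb1 (0.06, adjusted p = 0.903) did not pass and Npc2 turned to -0.39.

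Genes of sterol efflux and storage were higher where they passed. Of 9 listed, 6 were tested, with 0 lower, 4 higher and a median of 1.20, against 24.1% lower and 24.6% higher of all tested genes. The cholesterol exporters Abca1 (log2 fold change 1.72) and Abcg1 (3.56), the apolipoprotein Apoe (2.70) and the cholesteryl ester hydrolase Nceh1 (0.67) rose. Abcg1 had 1 to 8 counts in control and 15 to 32 in Trpm7 cKO libraries. It passed the filter on low counts through the Trpm7 cKO libraries alone, the group in which it was higher. Its place in the count of higher genes thus depends on that filter. Apoe went from 244 ± 58.1 to 1596 ± 453 CPM. With the leukocyte markers in the model its log2 fold change was 1.24 (adjusted p = 0.0361 by edgeR). In that model Abca1 (0.54, adjusted p = 0.649) and Abcg1 (1.64, adjusted p = 0.257) did not pass, and Abca1 did not pass without scaling either (0.61, adjusted p = 0.133). Nceh1 did not pass without control replicate 3 or 4 or Trpm7 cKO replicate 3, 4 or 5 (0.32 to 0.66, adjusted p = 0.0512 to 0.300) and turned to -1.27 with the leukocyte markers in the model and to -0.48 without scaling. The leukocyte markers, listed above with their ranges, were higher in the same libraries, and their part in these 2 groups of genes was not tested. The model that holds them cannot decide it, since their level did not overlap between the genotypes.

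Outside sterol synthesis, the prenyl branch that shares farnesyl diphosphate had 8 of 9 genes tested. Of these, 2 were lower (24.1% of all tested genes) and 1 higher (24.6% of all), with a median of -0.14. The lower ones, Pdss1 (log2 fold change -1.84) and Pdss2 (-1.28), form the side chain of ubiquinone. Pdss1 overlaps Abi1 on the opposite strand at its 3′ end. With 23 to 39 counts in control and 1 to 8 in Trpm7 cKO libraries, it passed the filter on low counts through control libraries. The higher one, Dhdds (0.90), acts in dolichol synthesis. It turned to -0.26 without scaling and did not pass without control replicate 1 or 5 or Trpm7 cKO replicate 1, 4 or 5 (0.69 to 0.89, adjusted p = 0.0584 to 0.126). Fatty acid synthesis, which SREBP1 is known to favour, had 6 of 9 genes tested. Here 3 were lower and 1 higher, against the same shares of all tested genes, with a median of -0.41. Acly (-0.51), Scd2 (-0.97) and Fads1 (-0.88) fell, and Scd1 (1.29) rose. With the leukocyte markers in the model Pdss1 (-1.70), Acly (-0.83), Scd2 (-0.094) and Fads1 (-0.32) did not pass (adjusted p = 0.293 to 0.950), and Scd1 did not pass without scaling (0.15, adjusted p = 0.727). Acly did not pass without control replicate 1, 3 or 4 or Trpm7 cKO replicate 2 or 5 (-0.50 to -0.39, adjusted p = 0.0542 to 0.112).

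**Figure D5:**
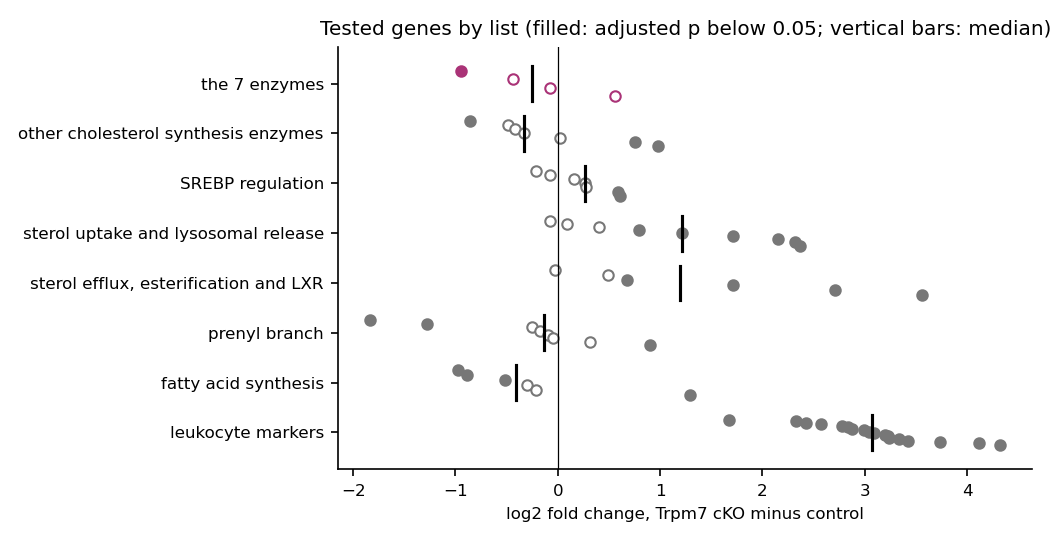
Log2 fold change, Trpm7 cKO minus control, of each tested gene by list. Filled points have an adjusted p below 0.05 and vertical bars mark list medians. The 4 tested of the 7 enzymes lie between -0.95 and 0.56, and the leukocyte markers have a median of 3.07.

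Proliferation markers were lower in the same libraries, with 11 of 14 passing, against 24.1% lower and 24.6% higher of all tested genes. They summed to 2878 to 4100 CPM in control and 839 to 1958 CPM in Trpm7 cKO libraries. MuSC markers summed to 3054 to 3525 and 2654 to 4429 CPM (exact permutation test, two-sided, p = 0.127), with 6 of 12 tested higher and 2 lower. Fibroadipogenic markers summed to 2393 to 4118 and 2287 to 4889 CPM (exact permutation test, p = 0.325), with 4 of 6 tested higher, 1 lower and a median log2 fold change of 1.91. Their part in the levels of the cholesterol synthesis enzymes was not tested.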

How the data were processed

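CEL-Seq2 libraries were made from 5 control and 5 Trpm7 cKO samples. Per the labels, the authors used UMI-tools 1.1.4, Trim Galore 0.6.10, HISAT2 2.2.1 and featureCounts 2.0.6 with GRCm38. The deposited table gives unnormalized molecule counts, in whole numbers, left once UMI duplicates were removed. The annotation release and strand setting are not given in the sources used here. Samples were grouped by the genotype and replicate in their labels.

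The table has 24620 entries under 24608 symbols. For 12 symbols on a further line, the entry with the larger total was used. After filterByExpr (minimum count 10, minimum total count 15), 7753 genes entered edgeR 4.0.16 (R 4.3.3), where TMM factors, a robust quasi-likelihood fit with genotype as the only term and Benjamini-Hochberg adjustment over all tested genes followed. Ratios and sums were compared by exact permutation tests over 252 splits. Nothing in the labels says that libraries of a genotype came from separate animals, and p-values then measure the spread between these libraries. No 2 libraries of a genotype were alike within counting noise. The tests were tested on simulated counts.

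The 7 enzymes and all gene lists were chosen with earlier results of these data known. Some genes of sterol synthesis and uptake are not reported here, and list counts leave them out. Named genes are the 7 enzymes, tested synthesis and SREBP genes, other listed genes that passed, and the 5 genes with the most similar deviations (log2 CPM, prior count 2). Positions and 3′ overlaps are from the GENCODE vM21 annotation of GRCm38, and promoters from RefSeq. Alternatives were DESeq2 1.42.0, limma-voom (limma 3.58.1), other scalings and filters, thinning, a replicate block, a leukocyte covariate, summing Trpm7 cKO replicates 4 and 5, each library left out, and, chosen after seeing the data, leaving out the 2 shallowest libraries and pairs without Fdps.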

Additional observations from a re-analysis of the deposited data

Results flagged for a closer look

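Fdps stood apart in 1 library of each genotype. Its level was 1.07 CPM in control replicate 3 and 1.84 CPM in Trpm7 cKO replicate 2, each from 1 count, while the other 4 libraries of the genotype were at 0. The gap to the other libraries was thus the whole range of the group. A single count among 5 libraries always gives such a gap. For values that vary continuously the criterion is met by chance in about 1 group of 20, and 24 groups were checked.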

How the results depend on the processing

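The number of cholesterol synthesis enzymes called lower, 1 in the fit reported, was 2 with no filter on low counts, with MuSC marker scaling and with the replicate block, 3 without scaling for library size, and 0 after thinning, with the leukocyte covariate or with a log2 fold change beyond 1.5 required as well. It was 1 to 2 when each library was left out in turn, and the number called higher was then 0 to 1. The number of other synthesis enzymes called lower, 1 in the fit reported, was 0 with DESeq2, after thinning and with the covariate, 5 without scaling, 2 with no filter and 0 to 1 with a library left out. Of these enzymes 2 were called higher, against 1 with DESeq2, with MuSC marker scaling and with no filter, 0 without scaling, after thinning and with the covariate, and 1 to 2 with a library left out. All genes called numbered 3774, against 1804 after thinning (3914 tested), 545 with the covariate, 932 with the fold threshold and 3399 to 4094 with a library left out. Of the pairs of enzymes, 7 passed, against 0 without Fdps and 0 to 7 with a library left out. With 4 libraries in a group fewer splits exist, but the smallest p that they allow is no larger.

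The share of called genes that were higher was 50.6%, against 39.8% with MuSC marker scaling, 6.86% without scaling and 73.9% with the covariate. The median of all tested genes moved to -0.19, -1.15 and -0.04 in these, to 0.15 with DESeq2 and to 0.17 with no filter. Direction turned for these log2 fold changes, and the cause was not tested. Without scaling: Fdft1 -0.58, Erg28 -1.14, Ebp -0.39, Sc5d -0.15, Srebf1 -0.53, Scap -0.98, Insig1 -0.88, Insig2 -0.84, Mbtps1 -0.55, Npc2 -0.39, Nceh1 -0.48 and Dhdds -0.26. With the covariate: Hmgcs1 0.15, Nsdhl 1.71, Hsd17b7 0.99, Ebp -0.10, Srebf2 0.50, Mbtps2 1.27, Scarb1 -2.06, Npc2 -0.65, Nceh1 -1.27 and Dhdds -1.05. Erg28 was -0.047 with DESeq2, -0.16 with MuSC marker scaling (Scap -0.021) and -0.17 with no filter (Scap -0.032), and Srebf2 was 0.13 after thinning. Without the 2 shallowest libraries Erg28 was -0.048, and 1 enzyme was called lower, as in the fit reported. With a library left out, Erg28 ran from -0.081 to 0.14, Cyp51 from -0.23 to 0.024, Insig1 from -0.099 to 0.44 and Srebf2 from -0.16 to 0.068. Of 784 values of 35 genes under the alternatives, 660 kept their direction and side of the threshold, 74 no longer passed, 14 newly passed and 36 turned.

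The replicate numbers did not pair the libraries. The correlation of deviations of same-numbered libraries was -0.04, -0.12, -0.07, 0.06 and 0.18, and 1 of 5 numbers correlated best with its own. With the replicate number as a block, 2 enzymes were called lower, Hmgcs1 joining Sqle (adjusted p = 0.0441), and 3572 genes in all. Depth limits Idi1 and Lss, which had 29 and 50 counts in all.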
